A study of Mus musculus with 6 samples.

Results

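The EGR, NR4A and IER genes studied here are 9 immediate-early genes, Egr1, Egr2, Egr3, Nr4a1, Nr4a2, Nr4a3, Ier2, Ier3 and Ier5, found by symbol among the 49492 genes of a read count table. RAW264.7, a mouse macrophage line, was the source of all RNA, which was sequenced as mRNA with a stranded kit. The 3 libraries labelled Ep300 silenced came from cells given an siRNA against Ep300, and the 3 labelled WT came from cells given a control siRNA (nc_siRNA). Both siRNAs were used at 50 nM for 48 h with the same transfection kit, so every library comes from transfected cells and none from untouched cells. The silenced gene makes p300, a coactivator that acetylates histones and transcription factors, and the design sets cells short of it against cells that keep it. Nothing in the labels ties the libraries of a group to different cultures; the p-values therefore reflect no more than library-to-library spread, which may be technical. The 9 genes were chosen by family and with the fold changes of this same comparison known, Egr2 for its lower and Nr4a3 for its higher level after Ep300 siRNA. Their values, and the counts of those past the threshold, are therefore a description that supports nothing by itself, and no p-value is given for them.

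Immediate-early genes are transcribed within minutes of a stimulus, without new protein synthesis, by factors already present in the cell. The kinases ERK and p38 act on the serum response factor SRF with its TCF partners (ELK proteins) at CArG boxes, and on CREB at cyclic AMP response elements. CREB in turn recruits p300 and its paralog CBP. EGR proteins are zinc-finger transcription factors, NR4A proteins are nuclear receptors that act without a known classical ligand, and IER proteins are small regulators with little likeness to known domains. In macrophages all these groups are best known for their induction by inflammatory and growth signals, and no such stimulus is named in the labels of these libraries.

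The start regions of Egr2 and Nr4a3 are shown with those of Nr4a1 and Nr4a2, the relatives of Nr4a3, whose groups overlapped. Whether the recognition sequences in them bear on the fold changes was not tested. RefSeq windows on GRCm38.p6, from 250 bases before to 50 bases after a start site, were found for 6 of the 9 genes, in 10 windows. The printed stretches run 5′ to 3′ on the gene's strand and hold no annotated exon. Those of Egr2 and Nr4a1 lie in introns, inside the annotated gene and before a start downstream of the first. Capitals mark matches to CArG boxes, to TGACG (the core of the cyclic AMP response element), to the SP1 site GGGCGG and to the TATA box TATAAA, on either strand.
Egr2, chr10:67537619-67537868, plus strand: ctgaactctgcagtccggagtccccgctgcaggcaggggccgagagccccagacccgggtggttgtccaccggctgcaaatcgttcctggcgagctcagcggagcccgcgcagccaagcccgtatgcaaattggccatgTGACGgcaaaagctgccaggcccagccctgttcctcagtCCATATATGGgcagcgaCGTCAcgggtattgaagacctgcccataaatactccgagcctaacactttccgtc
Nr4a3, chr4:48045055-48045152, plus strand: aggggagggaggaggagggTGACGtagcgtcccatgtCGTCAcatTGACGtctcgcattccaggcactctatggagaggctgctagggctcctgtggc
Nr4a1, chr15:101266596-101266845, plus strand: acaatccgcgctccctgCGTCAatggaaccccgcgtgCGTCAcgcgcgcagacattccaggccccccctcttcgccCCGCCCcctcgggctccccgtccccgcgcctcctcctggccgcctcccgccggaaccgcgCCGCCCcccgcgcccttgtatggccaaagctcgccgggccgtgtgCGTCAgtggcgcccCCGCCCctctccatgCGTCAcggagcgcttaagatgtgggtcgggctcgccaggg
Nr4a2, chr2:57124004-57124253, minus strand: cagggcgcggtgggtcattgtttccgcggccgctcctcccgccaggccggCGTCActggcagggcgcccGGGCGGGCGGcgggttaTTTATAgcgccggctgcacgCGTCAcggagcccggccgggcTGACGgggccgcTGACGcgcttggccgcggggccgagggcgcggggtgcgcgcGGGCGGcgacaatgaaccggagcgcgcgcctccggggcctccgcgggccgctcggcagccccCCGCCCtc

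Egr2 supplies 5 of the 10 windows and the other genes 1 each, so it had more chances to hold a motif; Egr1, Egr3 and Ier2 have no window here. A CArG box was found in 4 of the 5 Egr2 windows, not in the one at its first start, and in none of the other 5 windows. CCATATATGG lay at −72 to −63 from the start at 67537869, in 3 overlapping windows, and CCTTTTTTGG lay in the window from 67537316. Of all 32851 RefSeq windows of this length, 1.63% held a CArG box. The printed Egr2 window held 2 TGACG matches. The windows of Nr4a1, Nr4a2 and Nr4a3 held 4 TGACG matches each, counting those past the stretch printed for Nr4a3. At least 1 match was found for 4 of the 6 genes, not for Ier3 or Ier5, and 20.8% of all windows held at least 1. How many of all windows held 4 was not counted. In Nr4a3 the 3 printed matches stood close together, from −231 to −201 relative to the RefSeq start at 48045305. The full element TGACGTCA, of which TGACG is a part, is held by 1.79% of all windows, the EGR site GCGTGGGCG by 0.612% and the NR4A site AAAGGTCA by 1.51%. None of these 3 was found in the 10 windows of the 6 genes. GGGCGG was found for all 6 genes, and 35.7% of all windows held it. TATAAA was found in the Nr4a2 window, and 13.6% of all windows held it. These matches describe the letters only, and binding was not measured.

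Ep300 was lower in every library labelled Ep300 silenced. It stood at 51.1, 59.0 and 54.9 CPM after Ep300 siRNA, against 106.8, 115.3 and 118.4 CPM after control siRNA, where sets of 3 values here and below run from replicate 1 to replicate 3. CPM are counts scaled to library size, with TMM factors, and total counts ran from 29993567 to 45377510 per library. Of 15741 genes tested with edgeR, 1068 (6.78%) passed an adjusted p of 0.05, 435 (2.76%) higher and 633 (4.02%) lower after Ep300 siRNA. With library sizes alone the split was 316 higher and 788 lower. Of 9 macrophage markers in the table, 8 were high enough to test, and their sum ran from 10459 to 11414 CPM after Ep300 siRNA and from 9248 to 10884 CPM after control siRNA. Lyz2, which encodes lysozyme, made up most of that sum, and single markers went different ways. Csf1r, the receptor of the macrophage growth factor CSF1, ran from 629 to 710.3 CPM after Ep300 siRNA and from 747 to 792 CPM after control siRNA, whereas Cd14, the lipopolysaccharide coreceptor, ran from 220.5 to 245 CPM after Ep300 siRNA and from 185 to 208 CPM after control siRNA. Mertk, a receptor of resident macrophages, stayed at 0.404 CPM or less. The 26 markers of other cell types summed to between 39.9 and 47.5 CPM after Ep300 siRNA and to between 46.4 and 50.7 CPM after control siRNA. Most of it came from 1 gene of the dendritic cell list, Itgax, at 32.5 to 43.3 CPM over all libraries. Of the same list, Zbtb46 stood at 3.22 to 5.15 CPM, and Flt3 and Xcr1 at 0.540 CPM or less. Gm42418, whose locus contains ribosomal RNA sequence, set Ep300 siRNA replicate 1 apart: it read 5823 CPM there, while the remaining 5 libraries lay between 1327 and 2174 CPM.

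All 9 genes passed the filter on low counts. As a description, 3 of 9 lay past the edgeR threshold, Egr2 and Ier5 lower and Nr4a3 higher after Ep300 siRNA, beside 6.78% of all genes tested. Nothing is read from this share, since the genes were chosen on the same values. The 3 libraries of each group did not overlap for 5 of the 9 genes, 4 lower and 1 higher after Ep300 siRNA. Over all genes tested the groups did not overlap for 27.5%, with 14.4% lower and 13.0% higher. The median log2 fold change of the 9 genes was −0.05, and that of all genes tested was −0.00.

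**Figure D1:**
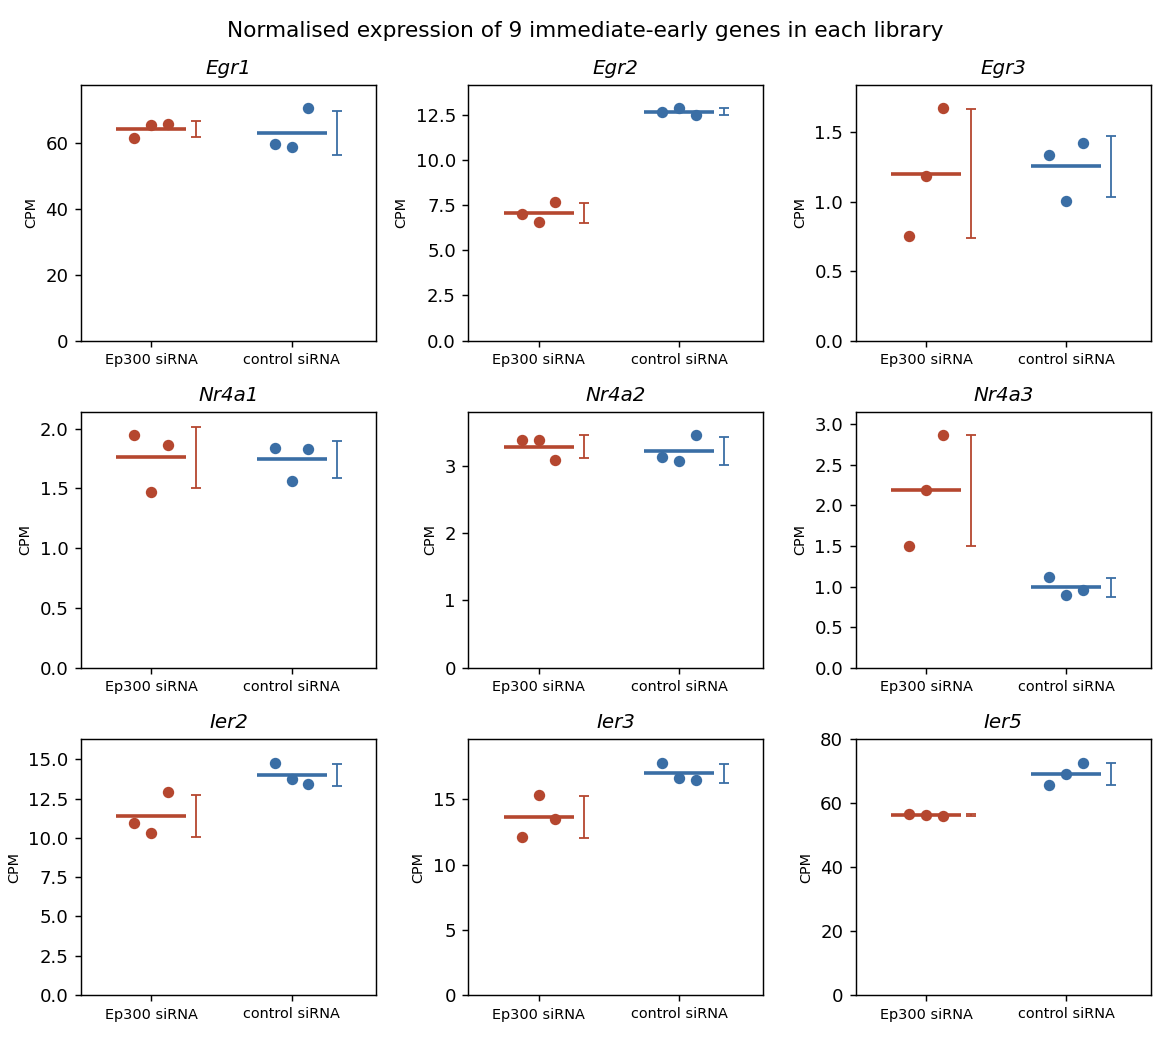
Expression in CPM (y axis, linear, from 0) of each of the 9 genes in the 3 Ep300 siRNA libraries (left) and the 3 control siRNA libraries (right). Points are libraries, horizontal lines are means and the bars beside them are the SD (n = 3). Egr2, Ier2, Ier3 and Ier5 lie lower and Nr4a3 higher after Ep300 siRNA with no overlap, and the groups overlap for Egr1, Egr3, Nr4a1 and Nr4a2.

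Egr2 is a zinc-finger factor needed for hindbrain patterning and myelination in mice, and it is also induced in macrophages. It stood at 6.99, 6.58 and 7.67 CPM after Ep300 siRNA, against 12.6, 12.9 and 12.5 CPM after control siRNA. Every Ep300 siRNA library lay well under every control library, and the control libraries were nearly level with each other. The mean was 7.08 ± 0.551 CPM after Ep300 siRNA and 12.7 ± 0.189 CPM after control siRNA (SD, n = 3 each). On the log2 scale the change was −0.84 ± 0.10 (SE), with a 95% interval of −1.05 to −0.62, a fall to 0.56 of the control level. Raw counts were 205, 228 and 284 after Ep300 siRNA and 585, 461 and 456 after control siRNA.

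Egr1, the family member most widely used as a marker of recent stimulation, went no clear way. It stood at 61.7, 65.6 and 66.0 CPM after Ep300 siRNA, against 59.8, 58.9 and 70.7 CPM after control siRNA. The highest and the lowest of the 6 values were both control libraries. Its log2 fold change was 0.03 ± 0.08 (SE), with a 95% interval of −0.14 to 0.20. Egr3, which acts in muscle spindle development and in lymphocytes, was low, at 0.751, 1.18 and 1.67 CPM after Ep300 siRNA and at 1.34, 1.0 and 1.42 CPM after control siRNA. Those values rest on 22 to 62 counts per library, and the interval of its log2 fold change, −0.69 to 0.60, leaves changes in either direction within reach. Egr4, the remaining member of the family, had at most 0.109 CPM in any library and was not tested.

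The ratio of Egr2 to Egr1 counts within a library does not depend on how libraries are scaled. It was 0.113, 0.100 and 0.116 after Ep300 siRNA, against 0.211, 0.218 and 0.176 after control siRNA. Every Ep300 siRNA library lay below every control library in this ratio. Since Egr2 was chosen for its lower level, the ratio is a description of that choice.

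Nr4a3 encodes NOR-1, an orphan nuclear receptor. It stood at 1.5, 2.19 and 2.86 CPM after Ep300 siRNA, against 1.12, 0.892 and 0.958 CPM after control siRNA. All 3 Ep300 siRNA libraries lay above all 3 control libraries, but they differed widely among themselves. The mean was 2.19 ± 0.681 CPM after Ep300 siRNA and 0.991 ± 0.119 CPM after control siRNA (SD, n = 3 each), a log2 fold change of 1.14 ± 0.26 (SE), whose 95% interval ran from 0.57 to 1.71.

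The Nr4a3 values rest on few reads. Counts were 44, 76 and 106 after Ep300 siRNA and 52, 32 and 35 after control siRNA. The exact 95% Poisson interval of Ep300 siRNA replicate 1, 1.09 to 2.02 CPM, overlapped that of every control library. The control intervals were 0.839 to 1.47, 0.610 to 1.26 and 0.667 to 1.33 CPM. These intervals cover counting error only, and would be wider if both mates of each read pair were counted, since from 79.8% to 80.9% of counts between 1 and 4 were even. The lowest of the 3 values after Ep300 siRNA was that of replicate 1, the library with 5823 CPM of Gm42418. The log2 fold change of Nr4a3 was 1.35 without that library and 0.90 without Ep300 siRNA replicate 3, and the part of the first library in the result was not tested. Nr4a3 no longer passed the edgeR threshold when replicate 2 or replicate 3 of either group was dropped.

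The other NR4A genes had overlapping groups. Nr4a1 encodes NUR77, a receptor needed for patrolling monocytes in mice. It stood at 1.94, 1.47 and 1.86 CPM after Ep300 siRNA, against 1.84, 1.56 and 1.83 CPM after control siRNA, which overlap closely. Its log2 fold change was 0.01 ± 0.20 (SE, 95% interval −0.43 to 0.45). Nr4a2 encodes NURR1, which dopamine neurons need. It stood at 3.38, 3.37 and 3.08 CPM after Ep300 siRNA and at 3.13, 3.07 and 3.45 CPM after control siRNA, with a log2 fold change of 0.03 ± 0.14 (SE, 95% interval −0.29 to 0.34). Both intervals are wide enough to hold moderate changes in either direction.

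**Figure D2:**
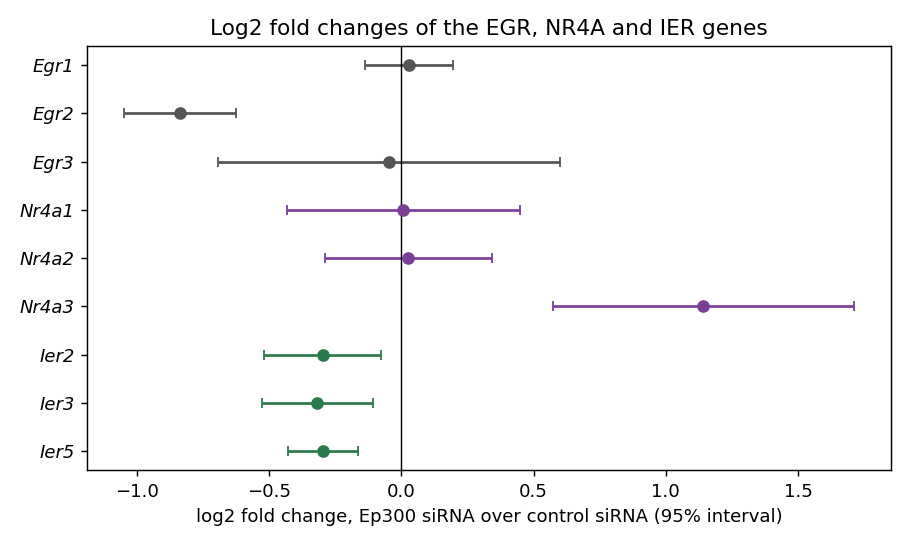
Log2 fold change of Ep300 siRNA over control siRNA (x axis) for the 9 genes, with the 95% interval of the edgeR fit as bars; grey marks EGR, purple NR4A and green IER genes. Egr2 lies at −0.84 and Nr4a3 at 1.14, the 3 IER genes lie near −0.30, and the intervals of Egr1, Egr3, Nr4a1 and Nr4a2 span 0.

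Set against each other within a library, Nr4a3 and Egr2 shifted against each other by a factor of 3.83. There were 0.215, 0.333 and 0.373 Nr4a3 counts per Egr2 count after Ep300 siRNA, against 0.0889, 0.0694 and 0.0768 after control siRNA. The lowest Ep300 siRNA library was well over the highest control library. The mean was 0.307 ± 0.0825 after Ep300 siRNA and 0.0784 ± 0.00984 after control siRNA (SD, n = 3 each). Nr4a3 also gained on its own relatives: there were 0.772, 1.49 and 1.54 Nr4a3 counts per Nr4a1 count after Ep300 siRNA and 0.612, 0.571 and 0.522 after control siRNA. Counts per Nr4a2 count were 0.444, 0.650 and 0.930 after Ep300 siRNA and 0.359, 0.291 and 0.278 after control siRNA. Since Egr2 and Nr4a3 were chosen for opposite directions, the size of the first ratio is a description of that choice. The ratios to Nr4a1 and Nr4a2 rest on the same Nr4a3 values and are a description too.

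**Figure D3:**
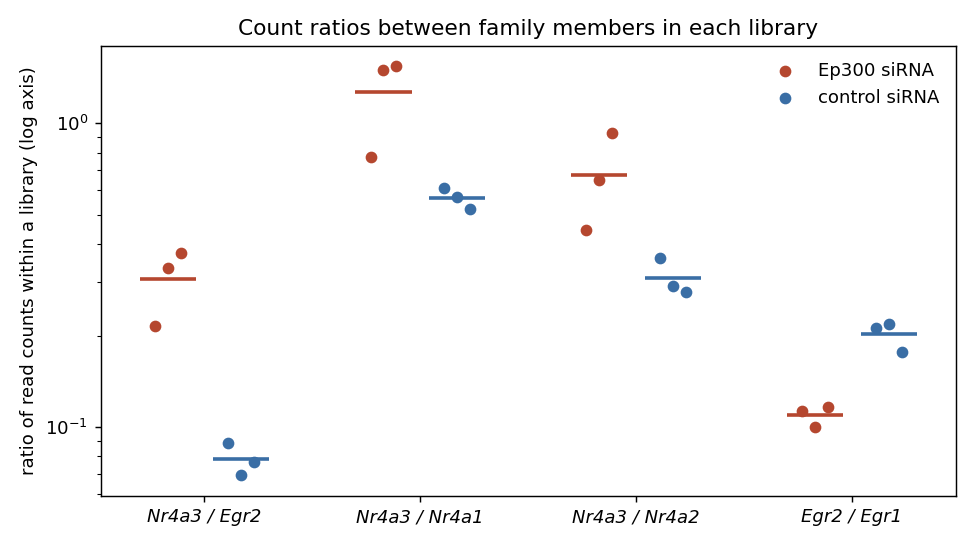
Ratio of read counts of gene pairs within a library (y axis, log scale), with 1 point per library, Ep300 siRNA in red on the left of each pair and control siRNA in blue, and lines for the means. For Nr4a3 over Egr2 the Ep300 siRNA libraries lie at 0.215 to 0.373 and the control libraries at 0.0694 to 0.0889.

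The 3 IER genes all had lower means after Ep300 siRNA, by similar amounts. Ier5, whose human protein binds the heat shock factor HSF1 and the phosphatase PP2A, was the steadiest of the 9 after Ep300 siRNA, at 56.7, 56.3 and 56.0 CPM, against 65.6, 69.2 and 72.7 CPM in the control libraries. Its log2 fold change was −0.30 ± 0.06 (SE, 95% interval −0.43 to −0.16). Ier3, an early response gene linked to cell survival and NF-kB signalling, stood at 12.1, 15.3 and 13.5 CPM after Ep300 siRNA and at 17.8, 16.7 and 16.5 CPM after control siRNA. Its log2 fold change was −0.32 ± 0.10 (SE, 95% interval −0.53 to −0.11). Ier2, a nuclear protein induced by growth factors, stood at 10.9, 10.3 and 12.9 CPM after Ep300 siRNA and at 14.8, 13.8 and 13.4 CPM after control siRNA, with a log2 fold change of −0.30 ± 0.10 (SE, 95% interval −0.52 to −0.08). The groups did not overlap for any of the 3 genes, beside 14.4% of all genes tested that were lower without overlap. Ier2 and Ier3 did not pass the threshold over all genes, while Ier5, with the most counts of the 3 (1662 to 3036 per library), did. The Ier5 call was also lost when replicate 2 or replicate 3 of either group was dropped.

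Per length, the 9 genes covered a wide range of levels. Levels were set in CPM per kb of annotated exon (GENCODE M21, GRCm38). Ier5 was the highest, at 17.2 ± 0.107 CPM per kb after Ep300 siRNA and 21.1 ± 1.09 after control siRNA (SD, n = 3 each), at percentile 84.3 of the 15249 tested genes with a length in the control libraries. Ier3 and Egr1 came next, at 12.1 ± 1.43 and 14.4 ± 0.521 CPM per kb after Ep300 siRNA and 15.0 ± 0.635 and 14.1 ± 1.47 after control siRNA, and these neighbours overlapped between control libraries. Ier2 followed, and then Egr2 at 2.08 ± 0.162 CPM per kb after Ep300 siRNA and 3.72 ± 0.0556 after control siRNA, near the median of 4.07 for all genes tested. The low end was held by Nr4a2, Nr4a1, Egr3 and Nr4a3. Nr4a3 was the lowest of the 9 in the control libraries, at 0.166 ± 0.0199 CPM per kb, and stood at 0.365 ± 0.114 after Ep300 siRNA, where it overlapped Egr3 at 0.273 ± 0.105.

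The genes also differed in spread between libraries. The SD of log2 CPM of Nr4a3 was 0.46 in the Ep300 siRNA libraries and 0.16 in the control libraries, beside medians over all genes tested of 0.11 and 0.12. Egr3, as low in counts, had 0.55 after Ep300 siRNA and 0.26 after control siRNA. Ier5 had 0.01 after Ep300 siRNA and 0.07 after control siRNA, and Egr2 had 0.11 and 0.02. Nr4a3 and Egr3 stood in the same order in the Ep300 siRNA libraries, lowest in replicate 1 and highest in replicate 3.

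The gene structures split by family. The IER genes span 1240 bases (Ier3, chromosome 17), 1522 bases (Ier2, chromosome 8) and 3276 bases (Ier5, chromosome 1), and the transcripts used for Ier2 and Ier5 have 1 exon. The EGR genes span 5162 bases (Egr1, chromosome 18), 5412 bases (Egr3, chromosome 14) and 6714 bases (Egr2, chromosome 10), with 2 exons. The NR4A genes have 8 exons and span 17174 bases (Nr4a2, chromosome 2), 20527 bases (Nr4a1, chromosome 15) and 41295 bases (Nr4a3, chromosome 4, 48045153 to 48086447), beside a median span of 17403 bases for protein-coding genes. The pentamer ATTTA, found in many unstable mRNAs, occurred 8.16 times per kb of 3′ UTR in Ier3 and 5.52 times in Nr4a1, against a median of 1.14 in 20633 coding genes. In Nr4a3 it occurred 1.62 times per kb and in Egr2 2.5 times, so this count did not order the 9 genes by their fold changes. No other annotated gene overlaps any of the 9.

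Neighbouring genes were not chosen on their own values and were tested. They were reached through the 9 genes, which were chosen on this comparison, so they are not a separate readout for genes that may share reads. They lay from 0.307 kb (Flot1, beside Ier3) to 1508.7 kb (Kcnj3, beside Nr4a2) away. Of the 18 nearest tested protein-coding genes, 1 on each side of each of the 9, 2 rose and 1 fell after Ep300 siRNA, beside 6.78% of all genes tested, with a median log2 fold change of −0.04. The count of 2 higher was 3 by DESeq2, 5 at an unadjusted p under 0.05, and 1 to 4 with a library left out. Rhobtb2 and Flot1 were the genes added in the fit without control siRNA replicate 1, which gave 4. The gene that fell was Ado, which encodes 2-aminoethanethiol dioxygenase and lies 2323 bases past the 3′ end of Egr2, on the opposite strand. Ado stood at 17.4 ± 1.07 CPM after Ep300 siRNA and at 28.2 ± 1.52 CPM after control siRNA (SD, n = 3 each), a log2 fold change of −0.69 ± 0.08 (SE, edgeR adjusted p = 0.000661). Egr2 and Ado were thus both lower, and by similar factors, 0.56 and 0.619. The sources used here do not say how strand entered the counting. Reads that run past the 3′ end of Egr2 therefore cannot be told apart from those of Ado, nor reads past the 3′ end of Ado from those of Egr2. Nrbf2, an autophagy gene 250.2 kb on the other side of Egr2, was at a log2 fold change of 0.26 ± 0.09 and did not pass (edgeR adjusted p = 0.115).

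Neither gene beside Nr4a3 passed the test. Stx17, a syntaxin of autophagosomes 38.5 kb away, was at 42.6 ± 2.53 CPM after Ep300 siRNA and 42.0 ± 1.54 CPM after control siRNA (log2 fold change 0.02 ± 0.07, SE, edgeR adjusted p = 0.904). Sec61b, a subunit of the protein translocation channel 561.9 kb away, was at −0.10 ± 0.10 (edgeR adjusted p = 0.607). Etf1, the translation release factor beside Egr1, rose to 1.33 times its control level (log2 fold change 0.41 ± 0.06, SE, edgeR adjusted p = 0.00217), while Egr1 itself was at 1.02. Nacc1, a BTB domain transcription regulator beside Ier2, rose 1.22-fold (0.28 ± 0.06, SE, edgeR adjusted p = 0.0196), and Ier2 was at 0.814. Nacc1 no longer passed when Ep300 siRNA replicate 1, Ep300 siRNA replicate 2 or control siRNA replicate 2 was dropped (adjusted p up to 0.0626).

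**Figure D4:**
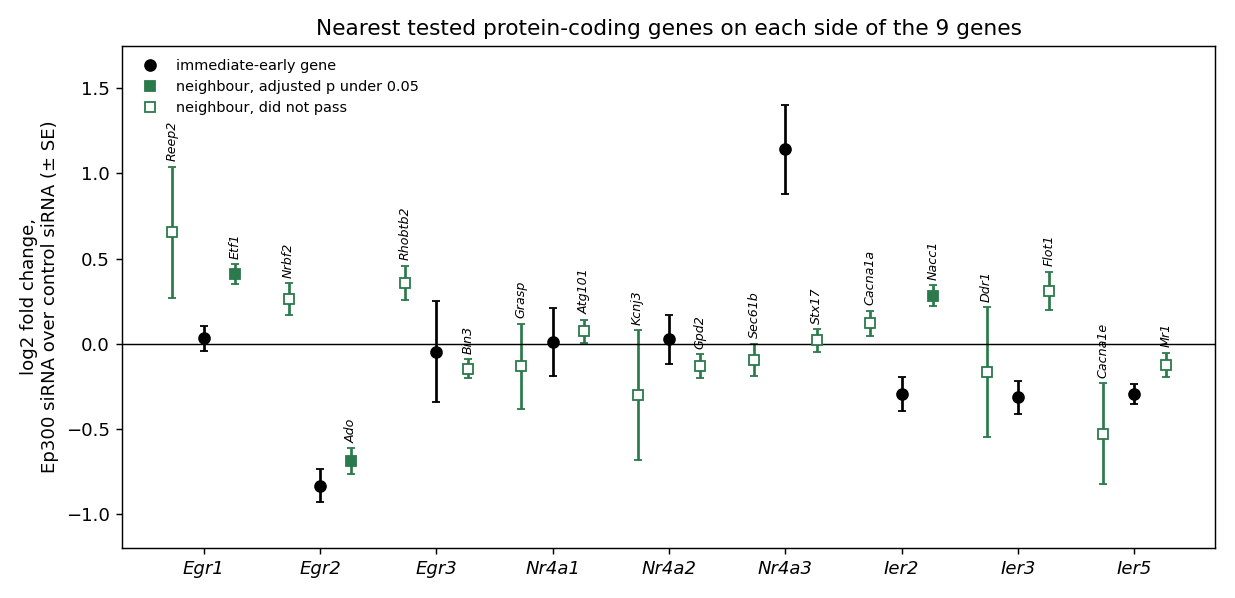
Log2 fold change of Ep300 siRNA over control siRNA (y axis, ± SE) for each of the 9 genes (black circles) and its nearest tested protein-coding gene on each side (green squares, filled where the edgeR adjusted p was under 0.05). Ado at −0.69 lies beside Egr2 at −0.84, and the neighbours of Nr4a3 lie near 0.

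Among other immediate-early genes, 15 of 43 tested fell after Ep300 siRNA, and 28 did not pass. Of the 43, which come from a list of 46, none rose by edgeR, and log2 fold changes were negative for 29 and positive for 14. The share called was 34.9%, all lower, beside 6.78% of all genes tested in either direction and 4.02% lower. This list and those below were chosen with earlier results of these data known, so their shares called are a description. The list's median log2 fold change was −0.17, beside −0.00 for all genes. Btg1, an antiproliferative gene, fell to 0.682 of its control level (65.1 ± 4.28 CPM after Ep300 siRNA and 95.5 ± 2.56 CPM after control siRNA, SD, n = 3 each; log2 fold change −0.55 ± 0.06, SE, edgeR adjusted p = 0.000813). Gadd45b, a stress sensor that acts on p38 and JNK signalling, fell to 0.626. Dusp5, a phosphatase of nuclear ERK, fell to 0.623, and Ptgs2, the inducible cyclooxygenase, fell to 0.603. Jun, an AP-1 subunit, fell to 0.742. The other 10 that fell were Dusp4, Klf6, Klf10, Fosl2, Dusp1, Fos, Myc, Pim1, Trib1 and Mcl1, at log2 fold changes from −1.04 for Myc to −0.23 for Mcl1. Myc was low, at 1.36, 1.15 and 1.84 CPM after Ep300 siRNA and 3.11, 3.43 and 2.46 CPM after control siRNA, and its SE was 0.22.

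Members of the same list that did not pass included Junb (−0.03 ± 0.06, SE), Atf3 (0.09 ± 0.07), Zfp36 (−0.02 ± 0.10) and Fosb (0.02 ± 0.44). Others that did not pass had larger changes in either direction. Tnfaip3 (−0.44 ± 0.13) and Klf4 (−0.41 ± 0.13) were lower, and Plk3 (0.29 ± 0.11) and Maff (0.21 ± 0.08) were higher. At an unadjusted p under 0.05, 3 were higher and 22 lower by edgeR, and no gene of the list was higher past the threshold by DESeq2 or limma-voom. Leaving out 1 library in turn, from 10 to 16 of the list were lower. The low of 10 was reached when either control siRNA replicate 2 or 3 was dropped. Jund, at 24.4 ± 7.68 CPM after Ep300 siRNA and 15.7 ± 4.04 CPM after control siRNA, had overlapping groups and was the gene called higher in the settings that gave 1. No member of the list was called in the direction of Nr4a3 in the fit used here.

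**Figure D5:**
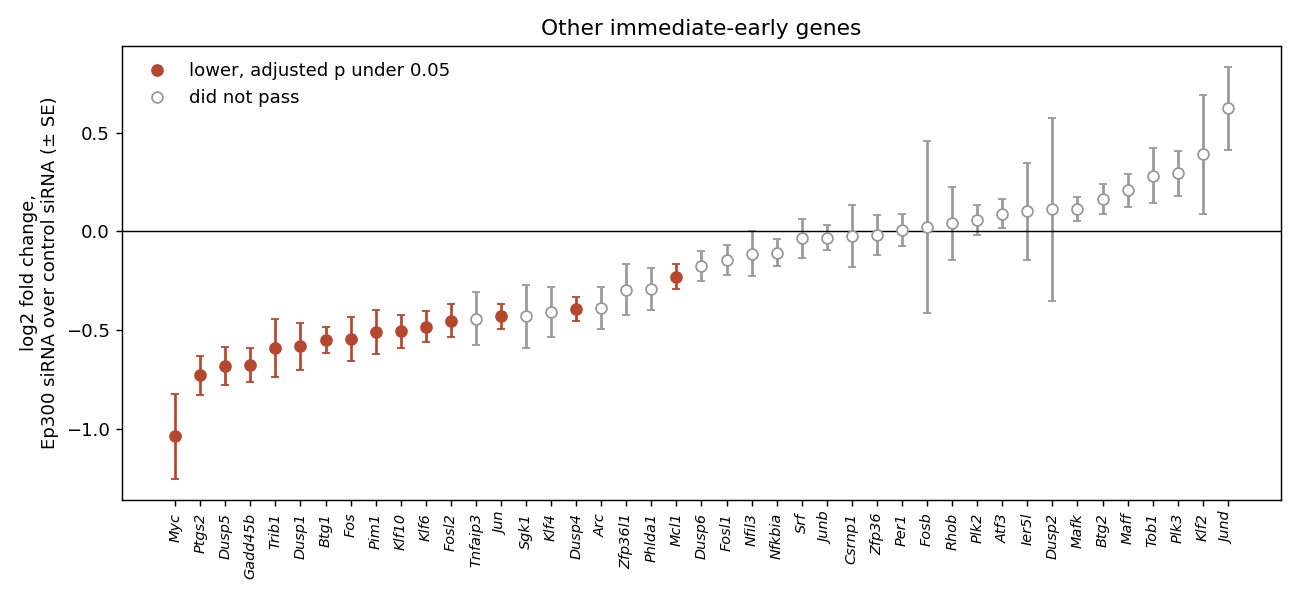
Log2 fold change of Ep300 siRNA over control siRNA (y axis, ± SE) of 43 other immediate-early genes, ordered by value, red where the edgeR adjusted p was under 0.05. The 15 red genes all lie below 0, from Myc at −1.04 to Mcl1 at −0.23, and Myc was low, at 3.43 CPM or less in every library.

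Of 9 tested corepressors and reported targets of EGR proteins, 1 rose and none fell by edgeR, with a median log2 fold change of −0.02. At an unadjusted p under 0.05, 2 were higher and 2 lower; DESeq2 called 1 higher and 1 lower, and limma-voom 1 higher and 0 lower. The gene that rose was Nab2, a corepressor that binds EGR proteins and is itself induced by them. Nab2 stood at 77.5 ± 5.84 CPM after Ep300 siRNA and at 61.3 ± 2.90 CPM after control siRNA (SD, n = 3 each), with a log2 fold change of 0.34 ± 0.07 (SE, edgeR adjusted p = 0.0142). Its paralog Nab1 was at 0.08 ± 0.06 and did not pass (edgeR adjusted p = 0.444). Its groups did not overlap, beside 13.0% of all genes tested that were higher without overlap. The difference between the paralogs was not tested.

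Of 5 tested binding partners of NR4A proteins, edgeR called 0 after adjustment and 1 before it, at a raw p under 0.05; DESeq2 and limma-voom called 0. The retinoid X receptors Rxra and Rxrb, with which Nr4a1 and Nr4a2 can pair on DNA, were at 0.18 ± 0.11 and −0.14 ± 0.08 (SE). Bcl2, a survival protein that Nr4a1 can bind, was at −0.18 ± 0.07 (edgeR adjusted p = 0.132). Of 11 tested partners of IER5 and chaperones driven by HSF1, 1 rose and none fell by edgeR. At an unadjusted p under 0.05, 2 were higher and 2 lower; DESeq2 called 2 higher and 1 lower, and limma-voom 1 higher and 0 lower. The gene that rose by edgeR was Ppp2r2a, a regulatory subunit of PP2A, at 0.24 ± 0.06 (SE, edgeR adjusted p = 0.038). That call was lost with library sizes alone and in 5 of the 6 fits with a library left out, with an adjusted p of up to 0.137. Hsf1 was at 0.22 ± 0.13 (edgeR adjusted p = 0.357) and its target Hsph1 at −0.20 ± 0.06 (0.0707).

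Transcription factors and cofactors known to act on these genes, activating or repressing, were tested in 3 lists. None of 6 SRF, TCF and MRTF genes, 8 MEF2 and class IIa deacetylase genes or 7 CREB genes passed edgeR's adjusted p. Each list had 1 gene with a raw p under 0.05, and DESeq2 and limma-voom called 0 in all 3 lists. These were Elk3, a TCF (−0.20 ± 0.07, SE, edgeR adjusted p = 0.114), Hdac7, a class IIa deacetylase at 0.416 CPM after Ep300 siRNA and 0.736 CPM after control siRNA (adjusted p = 0.202), and Atf1, a CREB relative (−0.28 ± 0.09, adjusted p = 0.1). Atf1 passed when low counts were not filtered (adjusted p = 0.00731), and its adjusted p was 0.0562 to 0.248 in the other alternatives. Srf was at −0.04 ± 0.10, Creb1 at −0.05 ± 0.06 and Crebbp, the paralog of Ep300, at 0.14 ± 0.07 (SE). Of 14 kinases of the ERK and p38 cascades, 2 rose and 1 fell, a share called of 21.4% beside 6.78% of all genes tested. Rps6ka4, which encodes MSK2, a kinase of CREB and histone H3, rose to 20.6, 20.2 and 19.1 CPM after Ep300 siRNA, against 14.4, 13.7 and 13.2 CPM after control siRNA (log2 fold change 0.54 ± 0.08, SE, edgeR adjusted p = 0.0025). Its relative Rps6ka5, which encodes MSK1, was at −0.26 ± 0.10 (adjusted p = 0.154). Rps6ka1, the ribosomal S6 kinase RSK1, rose 1.22-fold, and Mapkapk2, the kinase MK2, fell to 0.853. Both calls were lost with some library left out, Rps6ka1 when Ep300 siRNA replicate 3 or the second control library was dropped (adjusted p up to 0.0599) and Mapkapk2 in 5 of 6 such fits (adjusted p up to 0.12).

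Among 9127 genes with a mean of at least 5 CPM, those whose log2 CPM ran most like Egr2 over the 6 libraries were Strap, Snx6 and Oraov1, with Pearson's r of 0.999, 0.998 and 0.996. Strap, a WD-repeat protein of the SMN complex, had 64.0, 56.2 and 74.1 CPM after Ep300 siRNA and 165.8, 162.8 and 163.1 CPM after control siRNA. The genes most like Nr4a3 were Serhl, L1cam and Psme2, with r of 0.983, 0.983 and 0.979. Psme2, an activator subunit of the proteasome, had 110.8, 116.7 and 127.1 CPM after Ep300 siRNA and 108.1, 103.3 and 105.5 CPM after control siRNA. Log2 fold changes were −1.34, −0.77 and −0.34 for Strap, Snx6 and Oraov1. They were 0.26, 0.27 and 0.16 for Serhl, L1cam and Psme2, which did not pass the edgeR threshold. All were picked for running like genes chosen on this comparison, over the same 6 libraries, so r is a description over 6 points.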

How the data were processed

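Gene expression was measured by sequencing mRNA from RAW264.7 cells in 6 libraries, 3 after Ep300 siRNA and 3 after control siRNA, from 2 µg of total RNA each. The deposited table holds raw counts per gene symbol; the submitters' processing notes name GRCm38, edgeR 3.12.1, featureCounts, STAR 2.5.3a and fastp 0.23.4. The sources used here give neither strand and multimapping settings nor the annotation. Columns were matched to samples by name. Of 49492 symbols, 47229 were found in GENCODE M21 (GRCm38), which gave coordinates and exon lengths; promoter windows came from RefSeq (GRCm38.p6).

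The test was the two-sided quasi-likelihood F-test of edgeR 4.0.16 (R 4.3.3) after filterByExpr and TMM, with no covariate, with Benjamini-Hochberg adjustment over 15741 genes and a threshold of 0.05. Standard errors come from the log2 fold change and F. The step was also run on simulated counts in which all genes had the same spread. That run does not cover genes that vary more between libraries, such as Nr4a3 and Egr3. Total counts ran from 29993567 to 45377510, and replicates of a group differed by more than sampling noise, with chi-square over its degrees of freedom between 9.19 and 32.9.

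The 9 genes, the 8 lists of related genes and the tests were chosen with earlier results of these data known. Genes named are the 9, Ep300, the nearest tested protein-coding neighbours, up to 5 genes per list and direction past the threshold by smallest p (or the smallest p where none passed), and the 3 genes most like Egr2 and Nr4a3; others are given as values. Alternatives were 3 other scalings (library size, RLE, upper quartile), omitting the filter, 1 CPM in 3 libraries, DESeq2 1.42.0, limma-voom (limma 3.58.1), the replicate number as a block, halved counts, an adjusted p of 0.01 and each library left out.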

Additional observations from a re-analysis of the deposited data

How the results depend on the processing

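Ep300 and Ado kept their direction and stayed past the threshold in all 15 alternatives. As a description of genes chosen on these values, Nr4a3 was higher and Egr2, Ier2, Ier3 and Ier5 were lower in all 15. Nr4a3 and Ier5 lost their calls when replicate 2 or 3 of either group was dropped. With each library left out in turn, log2 fold changes ran from −0.90 to −0.78 for Egr2, 0.90 to 1.35 for Nr4a3 and −0.33 to −0.25 for Ier5. Those of Egr1 (−0.01 to 0.12), Egr3 (−0.37 to 0.19) and Nr4a1 (−0.06 to 0.12) crossed 0. The log2 difference in the Nr4a3 to Egr2 ratio ran from 1.78 to 2.18.

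Leaving out libraries gave 490 to 1054 genes called over all genes (202 to 447 higher, 280 to 607 lower), 1 to 3 of the 9 (0 to 1 higher, 1 to 2 lower), 12 to 22 of the listed genes (2 to 6 higher, 10 to 16 lower) and 10 to 17 of the other immediate-early genes (0 to 1 higher, 10 to 16 lower). Each such fit has 1 library fewer, which lowers power, but the counts differed between fits of the same size. The high of 1054 came without control siRNA replicate 1 and the low of 490 without control siRNA replicate 2. Why they differ was not tested. An adjusted p under 0.01 left 369 genes (130 higher, 239 lower), 1 of the 9 (0 higher, 1 lower, Egr2), 10 listed genes (1 higher, 9 lower) and 9 other immediate-early genes, all lower. Omitting the low-count filter put 30207 genes to the test and 1721 passed (730 higher, 991 lower), Ier3 joined the called genes, and 1 other immediate-early gene was higher. DESeq2 called 667 genes higher; the cause was not tested.

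Deviations of same-numbered libraries correlated at 0.09, 0.02 and −0.05, and not every library correlated best with its own number. With 3 libraries per group, such values cannot settle whether same-numbered libraries were paired. The fit with the replicate number as a block called 1357 genes, beside 1068 without it. That fit left the same 3 of the 9 called and called 1 other immediate-early gene higher. Among neighbours that did not pass, the sign turned for Grasp (−0.36 to 0.063 with each library left out; positive, 0.063 and 0.027, without Ep300 siRNA replicate 3 and control siRNA replicate 1) and for Stx17 (−0.015 with library sizes alone, −0.0023 to 0.068 with each library left out). Depth limits Nr4a3, Egr3 and Nr4a1, at 22 to 106 counts per library.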
